A study of Mus musculus with 9 samples.

Results

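A circular RNA (circRNA) forms when the end of an exon is spliced backwards onto the start of the same or an earlier exon, which closes a ring that has no free ends and is detected by reads across that back-splice junction. The 404 circRNAs described here are the exonic ones that were listed in all 9 libraries of mouse bone marrow mesenchymal stem cells, out of 6614 circRNAs in the deposited tables. They were chosen by a rule on those tables. The type had to be exon, the genomic span at least 1000 and under 50000 bases, the host a single gene with fewer than 10 exonic circRNAs, and a value had to stand in every library. They came from 350 host genes. Of all 6614 circRNAs, 636 were listed in all 9 libraries and 566 of those were exonic. Of those 566, the limit on the host kept out 77, and among the rest the span limits kept out 68 short and 17 long ones.

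The cells were marrow stromal cells bought as a commercial stock and grown for 7 days. The C2S group had osteogenic medium to which C2S was added, the ceramic dicalcium silicate, at a dose that the labels do not tie to the sequenced samples. The OM group had the osteogenic medium alone, with dexamethasone at 100 nM, ascorbic acid at 0.2 mM and beta-glycerophosphate at 10 mM. The PM group had proliferation medium without these 3 additions. Each group had 3 libraries. Whether these stand for separate cultures is not in the labels, and the p-values therefore reflect the spread among libraries that may be technical repeats. All values ± below are a mean and SD with n = 3 per group, except after a log2 change, where ± is its standard error.

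Most exonic circRNAs are by-products of the same precursor RNA that gives the host's messenger RNA. Their formation competes with linear splicing and is known to be helped by long flanking introns whose repeats pair with each other and by RNA-binding proteins such as Quaking. Once made they outlast most linear transcripts because exonucleases find no end to start from. The first exon of a gene lacks an acceptor site and the last one lacks a donor site, so circles are usually built from the exons between them, often beginning with the second.

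The circRNA values are in RPM, the share of a library's circRNA junction reads on a common scale. The libraries held 16936 to 17934 circRNA reads in C2S, 19123 to 20769 in OM and 13691 to 16123 in PM, and 1 read was worth 48.1 to 73.0 RPM. A circRNA was listed from 2 reads upwards, so the rule asked for at least 2 reads everywhere. Most of the near misses lacked a value in a PM library. The PM libraries were also the shallowest, and the part of depth in this was not tested. Of 196 circRNAs within the same limits that were listed in 8 libraries, 7 to 20 lacked a value in any one C2S or OM library and 46, 38 and 21 lacked it in PM libraries 1, 2 and 3. The stromal markers Pdgfra, Pdgfrb, Itgb1 and Prrx1 stood at 32.7 FPKM or more in every library, while Eng, Nt5e and Thy1, also used to define these cells, reached at most 2.92 FPKM. Some marker levels moved with the medium. The 12 stromal markers summed to 684 to 690 FPKM in C2S, 611 to 652 FPKM in OM and 1064 to 1104 FPKM in PM, where Col3a1 averaged 51.3, 54.4 and 247 FPKM in the same order. The 6 macrophage markers, of which 2 reached 1 FPKM, summed to 2.16 to 2.85 FPKM in C2S, 2.54 to 2.87 FPKM in OM and 7.30 to 8.24 FPKM in PM, with Ptprc, Adgre1 and Itgam at 0.0144 FPKM or less in every library. The 4 endothelial markers, 2 of them reaching 1 FPKM, summed to 2.54 to 2.68 FPKM in C2S, 1.99 to 2.32 FPKM in OM and 1.03 to 1.43 FPKM in PM, with Cdh5 at 0.0169 FPKM or less. None of the 5 blood markers reached 1 FPKM, and their highest sum was 0.495 FPKM, in PM. The part of these differences in the results was not tested.

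The junctions of the highest circles are shown because the back-splice is the one stretch of sequence that separates a circle from its host transcript. Each line gives the last 15 bases of the final exon in lower case and the first 15 bases of the opening exon in capitals, 5′ to 3′ and in the order in which the ring joins them. They were read from GENCODE M21 transcripts (mm10), not from sequencing reads, and the exon numbers are those of the transcript chosen for each gene.
Hipk3 circ_76, chr2:104470749-104471847, minus strand, exon 2: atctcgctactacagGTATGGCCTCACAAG
Ankib1 circ_593, chr5:3747021-3772787, minus strand, exon 2 to exon 5: tgcttcgagctcacgAATGTGAAACATGTT
Bnc2 circ_821, chr4:84546205-84555904, minus strand, exon 2 to exon 3: agaatgtcccaacagGCACGTTTTGTGCCC
Cacna1c circ_1261, chr6:119052601-119057515, minus strand, exon 2 to exon 3: accaactccaacctgGTTCCAACTATGGGA
Tcf20 circ_2164, chr15:82851513-82857284, minus strand, exon 2: atcgccagagagatgGAGGGCTGCTGGCCT
Glis3 circ_2532, chr19:28530873-28531986, minus strand, exon 4: cccaacaagtgtacgGTCCGTTATTTTGCA
Ube2k circ_1258, chr5:65565989-65594548, plus strand, exon 2 to exon 6: atgggttttgataggACGAGCAAAAATCAA
Mettl9 circ_255, chr7:121047838-121057399, plus strand, exon 2 to exon 4: cctatgtagaaaacgTGGTATGTGTGCAAC
Glis3 circ_109, chr19:28530873-28540408, minus strand, exon 3 to exon 4: cccaacaagtgtacgGGGCTCTTGGCTTTG

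Hipk3 circ_76 was the highest of all at a mean of 4827 RPM, or 83.7 reads. It is the single large exon 2 of a homeodomain-interacting protein kinase, 1099 bases long, of which 1097 are coding, between introns of 22100 and 24113 bases. Ankib1 circ_593 came next at 3895 RPM and joins exons 2 to 5 of a ubiquitin ligase gene with ankyrin repeats. Paip2 circ_1683, from a gene for a repressor of poly(A)-binding protein, followed at 3287 RPM. Bnc2 circ_821 (3279 RPM) comes from the gene of the zinc-finger protein basonuclin. Cacna1c circ_1261 (3187 RPM) holds exons 2 and 3 of the pore subunit of the L-type calcium channel, between introns of 138577 and 272276 bases. Tcf20 circ_2164 (3183 RPM) is a single exon of 5772 bases, close to the 5866 bases of the longest circle in the set.

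Glis3, which encodes a Krüppel-like zinc-finger transcription factor, gave both circ_2532 at 3149 RPM and circ_109 at 2976 RPM. They share their final exon, so the lower-case parts of their junctions are the same, and they differ in whether exon 3 is included. Ube2k circ_1258 (3141 RPM), from a ubiquitin-conjugating enzyme gene, and Mettl9 circ_255 (3077 RPM), from a methyltransferase gene, completed the 10. Together the 10 held 12.2% of the summed RPM of the 404. The median circle lay at 482 RPM (quartiles 341 and 747), a mean of 8.39 reads per library. At the low end the mean was 138 RPM. In at least 1 library 109 of the 404 stood at the minimum of 2 reads, and 172 averaged at least 10 reads.

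**Figure D1:**
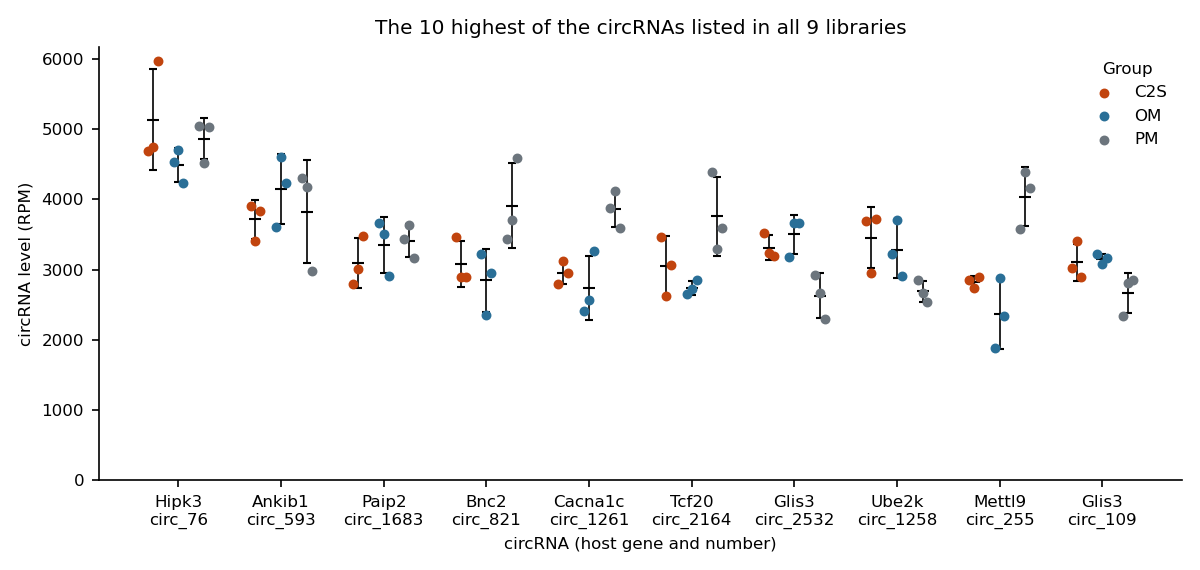
RPM (y axis, linear from 0) of the 10 circRNAs with the highest mean, in the C2S, OM and PM libraries from left to right within each circRNA. Points are libraries, and bars are the mean and SD of 3. Hipk3 circ_76 stands highest, between 4229 and 5964 RPM, and the other 9 lie between 1878 and 4602 RPM.

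The leading circles differed from each other in how their levels lay across the groups. Hipk3 circ_76 had 4691, 4740 and 5964 RPM in C2S, 4526, 4706 and 4229 RPM in OM, and 5040, 4523 and 5024 RPM in PM. Ankib1 circ_593 averaged 3716 ± 275 RPM in C2S, 4147 ± 500 RPM in OM and 3822 ± 735 RPM in PM. The groups overlapped in both cases. Glis3 circ_2532 had 3519, 3234 and 3188 RPM in C2S, 3178, 3661 and 3669 RPM in OM, and 2922, 2673 and 2295 RPM in PM, with all PM libraries below the others. Glis3 circ_109 showed the same order, at 3104 ± 265 RPM in C2S, 3157 ± 70.4 RPM in OM and 2667 ± 286 RPM in PM. Cacna1c circ_1261, Bnc2 circ_821 and Tcf20 circ_2164 had their highest mean in PM, at 3860 ± 258, 3908 ± 606 and 3756 ± 563 RPM. None of the circles of these 6 genes passed the test between groups that is described further on, whereas Mettl9 circ_255 was lower in OM than in PM by that test.

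The share of circRNA reads that the set took lay between 29.7% and 31.0% in every library. Of the reads on listed circRNAs the 404 held 30.4%, 30.1% and 30.6% in C2S, 29.7%, 30.9% and 30.3% in OM, and 30.2%, 29.97% and 31.0% in PM. The means differed by at most 0.0478 percentage points between groups (exact two-sided permutation test, p = 0.9 in each of the 3 comparisons, where 3 against 3 libraries cannot go below 0.1). The rule used these same values and left out any circle with fewer than 2 reads in a library. These p-values therefore do not show that the share is constant. For each 1000000 linear reads of the library instead, the set had 146.8 ± 2.28 junction reads in C2S, 159.7 ± 20.8 in OM and 128.4 ± 23.3 in PM. Those groups overlapped, with exact p of 0.4 for C2S against OM, 0.2 for OM against PM and 0.4 for C2S against PM.

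The spread of each circle over the libraries was set beside counting error. The ratio of the variance over the 9 libraries to the variance of counting alone had a median of 1.01 over the 404. Within groups the median ratio was 0.789. Among the 172 circles with a mean of at least 10 reads the medians were 1.22 over all libraries and 0.829 within groups, and the ratio was above 2 for 33 of them over all libraries and for 8 within groups. Because a circle that drops under 2 reads in any library leaves the set, the rule itself limits the spread. These ratios therefore describe the members, do not show that their levels are constant and cannot be carried over to other circRNAs.

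The lowest ratios over the 9 libraries among the 172 were those of Tank circ_2224 (0.195), Lncpint circ_1692 (0.196), Abhd17b circ_2466 (0.250), Cdk12 circ_2750 (0.268) and Colec12 circ_435 (0.283). Tank encodes an adaptor of TRAF signalling, and its circle averaged 624 ± 137 RPM in C2S, 722 ± 42.2 RPM in OM and 654 ± 32.7 RPM in PM. Lncpint is a long noncoding RNA gene, and circ_1692 had 780 ± 166 RPM in C2S, 740 ± 22.0 RPM in OM and 792 ± 73.7 RPM in PM. Colec12 encodes a scavenger receptor of the collectin family. Its circle had 605 ± 106 RPM in C2S, 774 ± 61.7 RPM in OM and 694 ± 95.2 RPM in PM, while its linear RNA had 262 ± 6.33 FPKM in C2S, 225 ± 7.29 FPKM in OM and 346 ± 12.8 FPKM in PM. Group means lay further apart in the host RNA, but its libraries within a group were closer, relative to the mean. The circle was picked for its low ratio, so this does not show it to be steadier than its host. The largest ratios belonged to Aff3 circ_1907 (8.90), Lrp6 circ_256 (6.79), Tgfbr2 circ_1220 (6.74), Hipk2 circ_113 (5.98) and Vegfd circ_1559 (5.17), all of which differed between media as described further on.

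**Figure D2:**
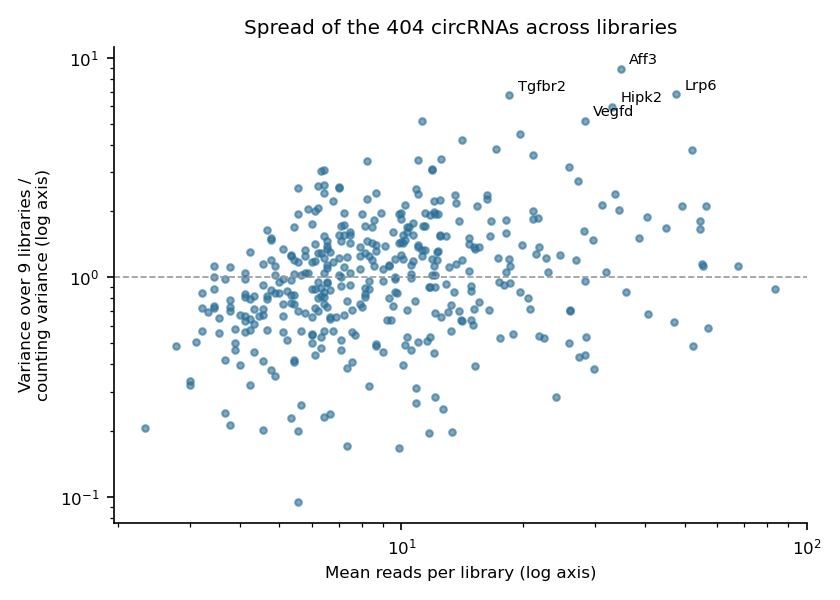
Ratio of the variance over the 9 libraries to counting variance (y axis, log scale) against mean reads per library (x axis, log scale) for the 404 circRNAs, with the 5 highest ratios named and a dashed line where the variance equals counting variance. Most points lie around the line, at a median of 1.01, and the named circles stand above it.

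Exon structure could be read for the 385 circles (95.3%) whose ends both fell on annotated exon ends of 1 transcript. None began at exon 1 and none ended in the last exon. Exon 2 was the first exon of 192 (49.9%), exon 3 of 61 and exon 4 of 39. The median circle joined 3 exons and 506 spliced bases, and 27 circles (7.01%) were a single exon. Among them were Hipk3 circ_76, Hipk2 circ_113, Tcf20 circ_2164, Ndst4 circ_725 and Glis3 circ_2532. Coding sequence filled 277 of the circles entirely, 9 held none, and 95 (24.7%) contained the annotated start codon. A length that is a multiple of 3 was found in 132 (34.3%).

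The same limits of type, span and host were met by 4358 circRNAs that were listed in only 1 to 8 libraries, and 4026 of these had both ends annotated. Of those 4026, 1409 (35.0%) began at exon 2, 1.52% were single exons and 16.5% held the start codon. The share that began at exon 2 was 31.1% for circles listed in 1 library and 49.5% for those listed in 8. Median flanking introns of the 385 were 18658 bases upstream and 13356 bases downstream, against 10136 and 6342 bases for the 4026. Median spliced length was 506 against 535.5 bases, and median GC content was 47.6% against 47.5%. Listing follows read number, which had a median of 8.39 per library in the 404 against 0.444 in the 4358, and listing and abundance were not separated. No test was made of these structural values.

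**Figure D3:**
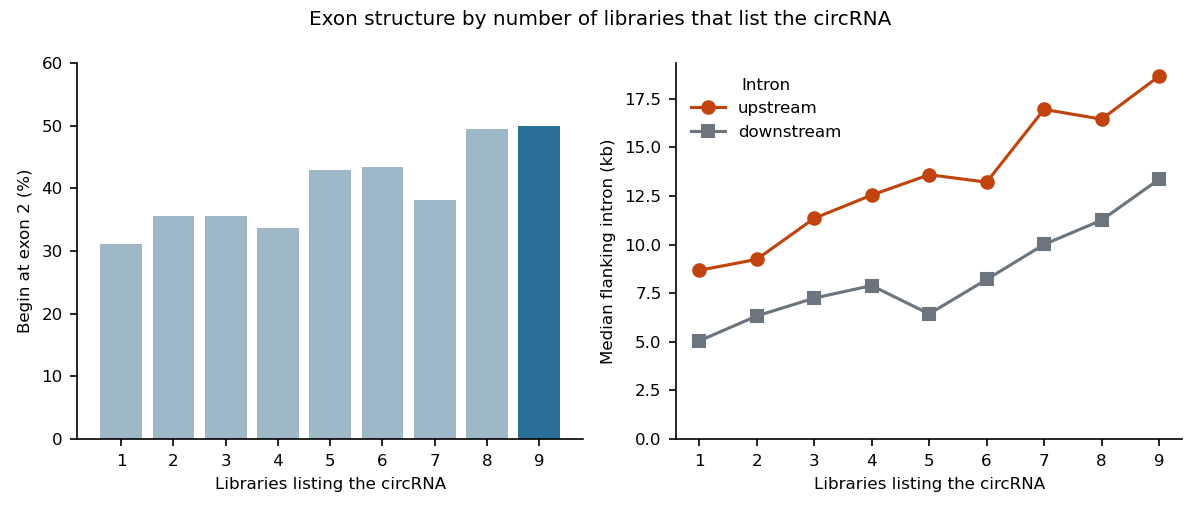
Left, percent of circRNAs with annotated ends that begin at exon 2 of their transcript (y axis from 0), by the number of libraries that list them (x axis). Right, median length in kilobases of the intron upstream and downstream of the circle. The last bar and points are the 404 circles, at 49.9% and at 18658 and 13356 bases.

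Host genes gave 1 circle of the set in 302 cases, 2 in 42 and 3 in 6 (Lncpint, Sp3, Apbb2, Glis3, Bnc2 and Rmst), and 72 circles shared an end with another, so they are not independent. Exons of another annotated gene lay within the span of 62 circles, 32 of them on the same strand. Linear RNA of the hosts had a median of 13.5 FPKM, a level per transcript length and library size, against 11.3 FPKM for 2074 other hosts of circRNAs within the same limits and 8.41 FPKM for all genes tested. Circle and host levels were only weakly related within a library, with Spearman's rank correlation between -0.019 and 0.106 over the 404 circles, which is a description across circles. The ratio of the circle's RPM to the host's FPKM had a median of 39.9 (quartiles 17.1 and 78.0). It was lowest for Fbln2 circ_6 at 0.707, where the host, an extracellular matrix gene, had 283 FPKM, and among circles with a tested host it was highest for Cacna1c circ_1261 at 531, whose host had 6.001 FPKM.

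The hosts of 3 circles lay below the level needed for testing. Pakap stood at 0.00836 FPKM although circ_2580 had 1004 RPM, and exons of Akap2 lie within its span on the same strand. Gm21992, with 0.697 FPKM and 746 RPM for circ_1743, overlaps Rbm4 in the same way. Vezf1, with 0.521 FPKM and 733 RPM for circ_384, has no other annotated exon there. No source used here gives how reads of overlapping genes were assigned, and the host values of the 32 circles with same-strand overlap are uncertain.

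Adding the ceramic to osteogenic medium is what separates the C2S group from the OM group. No circle of the set passed the test in this comparison, and none of the 2898 circRNAs tested did (0%). Every circRNA test used limma on log2(RPM + 111.7) over all 2898 circRNAs listed in at least 3 libraries, with Benjamini-Hochberg adjustment at 0.05. At an unadjusted p under 0.05 there were 12 of the 404 and 151 of the 2898, and the smallest adjusted p of the set was 0.504. The median log2 change was -0.01 over the 404 and -0.04 over all tested, and 402 of the 404 changed by less than 2-fold. In 40 circles (9.90%) the C2S and OM libraries did not overlap, 19 with C2S higher and 21 with C2S lower, against 10% of all tested (4.55% higher and 5.49% lower).

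The circle with the smallest p in this comparison, named after its values were seen, was Pibf1 circ_1525, from a gene for a centrosomal protein. It had 503, 446 and 531 RPM in C2S, against 915, 994 and 968 RPM in OM, and 511, 480 and 372 RPM in PM. Its log2 change of -0.82 ± 0.24 for C2S against OM did not pass (limma, adjusted p = 0.504), and the host RNA changed by 0.03 (adjusted p = 0.651). Ipo7 circ_2280, from an importin gene and also named after its values were seen, had 559, 613 and 708 RPM in C2S, against 289, 157 and 357 RPM in OM. Its log2 change was 0.99 ± 0.30 (adjusted p = 0.504), and the host RNA rose by 0.59 (adjusted p = 9.45e-05).

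Against proliferation medium, 13 circles of the set passed the test in OM against PM, in C2S against PM or in both. Their junctions follow for the 12 that are not among the leading circles above. They were chosen for printing after their values were seen, and case and order are as before.
Lrp6 circ_256, chr6:134506196-134513419, minus strand, exon 4 to exon 7: acagacaaaattgagGCAGGCAGTGGTTAA
Dcbld2 circ_2284, chr16:58424561-58433463, plus strand, exon 2 to exon 3: ttatagataaagaagGTGATGGATGTGGAC
Rasa2 circ_1054, chr9:96591950-96611499, minus strand, exon 2 to exon 5: gcagcttgttgtacaATGAAGCAAAAAATT
Aff3 circ_1907, chr1:38534906-38536946, minus strand, exon 2 to exon 4: cccaagcaggcagagTGTCTATGAACCGGA
Hipk2 circ_113, chr6:38818230-38819313, minus strand, exon 2: atccagatactaccgGTATGGCCTCACATG
Vegfd circ_1559, chrX:164391602-164400858, plus strand, exon 3 to exon 6: cccagacacctgcagTTATAGATGAAGAAT
Tgfbr2 circ_1220, chr9:116129816-116131713, minus strand, exon 2 to exon 3: tcatcttttcggaagTTAACAGTGATGTCA
Sox5 circ_1473, chr6:144116444-144155223, minus strand, exon 2 to exon 3: agaatgagccagaagGATGTCTTCCAAGCG
H6pd circ_386, chr4:149994469-149996381, minus strand, exon 2 to exon 3: ccatagatgcggaagGCACACAGGCATTTG
Ndst4 circ_725, chr3:125437547-125438761, plus strand, exon 2: gtcaaagatgtgaagATAATGCTTAAAGGA
Npr3 circ_1093, chr15:11883298-11895804, minus strand, exon 2 to exon 3: aatgaggaggattacTGGTGATCATGTGTG
Arhgap42 circ_2605, chr9:9046505-9059159, minus strand, exon 5 to exon 7: acgtccaggagaaaaGCAGATTCACAGATT
Hipk2 and Hipk3 are paralogous kinases that both circularise exon 2. Their 30-base junctions are identical at 25 positions, including the first 13 bases of the opening exon.

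In OM against PM, 11 circles passed, 5 higher and 6 lower in OM, which is 2.72% of the 404 beside 1.55% of all 2898 circRNAs tested (0.725% higher and 0.828% lower). Unadjusted p lay under 0.05 for 72 of the 404 and 364 of the 2898. The circles that were lower in OM came from genes of Wnt and TGF-beta reception, natriuretic peptide clearance, GTPase control, methylation and transcription. Those that were higher came from a stress kinase, a transcription factor of cartilage, a vascular growth factor, a heparan sulfate enzyme and a membrane receptor. Both groups share the PM libraries with the comparison of C2S with PM, so the 2 sets of changes are not independent of each other.

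Hipk2 circ_113 rose most clearly. It had 2311, 2876 and 2446 RPM in OM, against 657, 754 and 806 RPM in PM, a log2 change of 1.64 ± 0.17 (limma, adjusted p = 6.44e-05). The groups lay far apart, at 48 to 55 reads in OM and 9 to 13 reads in PM. Sox5 circ_1473, from a SOX transcription factor gene known in cartilage formation, had 1541, 1307 and 1376 RPM in OM, against 365, 343 and 310 RPM in PM, a change of 1.75 ± 0.20 (adjusted p = 3.36e-04). Ndst4 circ_725, from a gene for an enzyme that modifies heparan sulfate, had 915, 941 and 1274 RPM in OM and 365, 137 and 124 RPM in PM (1.91 ± 0.32, adjusted p = 0.00585). In PM this rests on 5, 2 and 2 reads, the last being the minimum for listing.

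Vegfd encodes a growth factor of lymphatic and blood vessels. Its circ_1559 had 1830, 2301 and 2140 RPM in OM, against 1169, 617 and 310 RPM in PM, with a change of 1.58 ± 0.31 (adjusted p = 0.0159). The PM libraries were spread widely but stayed below all OM libraries. Dcbld2 circ_2284, from a transmembrane receptor gene, had 3178, 3347 and 3006 RPM in OM, against 1753, 2262 and 1985 RPM in PM (0.64 ± 0.14, adjusted p = 0.0349).

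Among the circles that fell, Lrp6 circ_256 and Tgfbr2 circ_1220 came from a Wnt co-receptor and from a receptor of TGF-beta. Lrp6 circ_256 had 2167, 1935 and 2038 RPM in OM, against 4455, 4044 and 4280 RPM in PM, a log2 change of -1.02 ± 0.14 (adjusted p = 0.00155). Tgfbr2 circ_1220 had 674, 680 and 764 RPM in OM, against 2118, 1919 and 1985 RPM in PM (-1.37 ± 0.23, adjusted p = 0.00585). In both, the libraries of a group were close to each other and no values were shared between groups. Aff3 circ_1907, from a nuclear gene of the AF4 family, had 1493, 1726 and 1478 RPM in OM and 3944, 2878 and 3535 RPM in PM (-1.08 ± 0.17, adjusted p = 0.00389).

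Npr3 encodes the clearance receptor for natriuretic peptides. Its circ_1093 had 289, 261 and 408 RPM in OM, against 1315, 1508 and 930 RPM in PM, a change of -1.65 ± 0.28 (adjusted p = 0.00778). Arhgap42 circ_2605, from a gene for a GTPase-activating protein, rested on 4, 5 and 2 reads in OM, against 9, 11 and 12 reads in PM (-1.52 ± 0.35, adjusted p = 0.0478). Mettl9 circ_255 had 1878, 2876 and 2344 RPM in OM, against 3579, 4386 and 4156 RPM in PM (-0.76 ± 0.15, adjusted p = 0.0226).

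In C2S against PM, 10 circles passed, 7 higher and 3 lower in C2S, 2.48% of the 404 beside 1.66% of the 2898 (0.932% higher and 0.725% lower). Hipk2 circ_113 had 2066, 2230 and 2185 RPM in C2S and was higher than in PM by 1.42 ± 0.17 (adjusted p = 3.04e-04). Sox5 circ_1473 had 1285, 1561 and 1594 RPM in C2S, a change of 1.82 ± 0.20 (adjusted p = 2.64e-04). Ndst4 circ_725 had 1285, 1115 and 768 RPM (1.92 ± 0.32, adjusted p = 0.00485), Vegfd circ_1559 had 2122, 1617 and 2008 RPM (1.46 ± 0.31, adjusted p = 0.0265) and Dcbld2 circ_2284 had 3183, 2788 and 3366 RPM (0.61 ± 0.14, adjusted p = 0.0433). All C2S libraries of these 5 circles lay above all PM libraries. Of the circles that fell, Aff3 circ_1907 had 1229, 1450 and 1122 RPM in C2S (-1.37 ± 0.17, adjusted p = 5.76e-04), Tgfbr2 circ_1220 had 726, 446 and 827 RPM (-1.48 ± 0.23, adjusted p = 0.00294) and Lrp6 circ_256 had 2402, 1896 and 2421 RPM (-0.90 ± 0.14, adjusted p = 0.00294).

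A further pair passed in C2S against PM and missed the threshold in OM against PM. H6pd circ_386, from the gene of a hexose-6-phosphate dehydrogenase of the endoplasmic reticulum, had 1061, 1840 and 1417 RPM in C2S, 867, 1098 and 968 RPM in OM, and 292, 480 and 558 RPM in PM. The change was 1.48 ± 0.26 for C2S against PM (adjusted p = 0.00812) and 1.00 ± 0.26 for OM against PM (adjusted p = 0.0788). Rasa2 circ_1054, from a gene for an inhibitor of Ras, had 3016, 3234 and 2893 RPM in C2S, 2552, 2510 and 2904 RPM in OM, and 1753, 1850 and 2171 RPM in PM, with 0.64 ± 0.14 for C2S against PM (adjusted p = 0.0342) and 0.44 ± 0.14 for OM against PM (adjusted p = 0.142). The direct comparison of C2S with OM gave 0.48 ± 0.26 for H6pd circ_386 (adjusted p = 0.901) and 0.19 ± 0.14 for Rasa2 circ_1054 (adjusted p = 0.935), so a difference between C2S and OM was not shown for either.

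**Figure D4:**
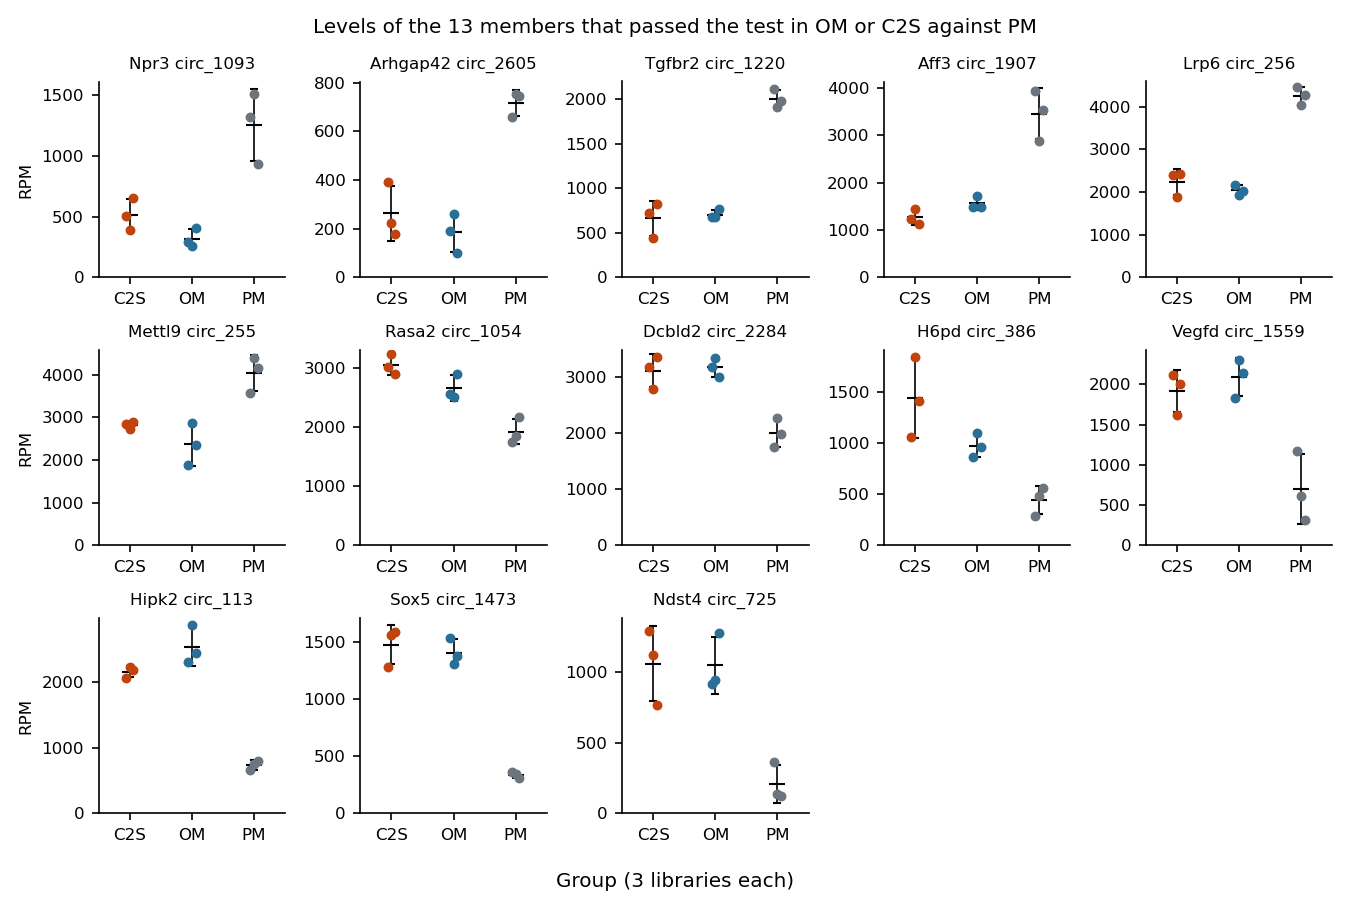
RPM (y axes, linear from 0) in each library for the 13 circRNAs that passed the test in OM or C2S against PM, with C2S, OM and PM from left to right. Points are libraries, and bars are the mean and SD of 3. The first 6 panels are circles lower in OM than in PM, and in the other 7 the C2S and OM libraries lie above the PM libraries.

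Most of the set changed by less than 2-fold on the scale of the test, which understates changes of low circles. This does not show that their levels were unchanged. Unadjusted p lay under 0.05 for 72 of the 404 in OM against PM and 60 in C2S against PM, beside 364 and 348 of the 2898. In OM against PM 384 of the 404 changed by less than 2-fold and in C2S against PM 390 did, with median log2 changes of 0.04 and 0.01 beside 0.09 and 0.01 over all tested. The OM and PM libraries did not overlap in 93 circles (23.0%; 51 higher and 42 lower in OM), against 15% of all tested (8.21% higher and 6.83% lower). The C2S and PM libraries did not overlap in 89 (22.0%; 45 higher and 44 lower in C2S), against 14.5% (6.83% higher and 7.63% lower). Listing in all libraries raises both the reads per circle and the floor under each group, so these shares are not support for a difference from other circRNAs.

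The number of calls depended on which circRNAs and libraries entered the fit. When only the 636 circRNAs listed in all 9 libraries were tested, it was 38 of the 404 in OM against PM (9.41%, beside 12.1% of the 636) and 28 in C2S against PM (6.93%, beside 10.1%). In OM against PM it was 6 without OM library 1, OM library 3 or PM library 2, and in C2S against PM it was 5 and 6 without C2S libraries 2 and 3. With circRNA reads scaled to linear reads, the median of all circRNAs moved to 0.24 in OM against PM and the calls became 10 higher and 1 lower, with Mettl9 (adjusted p = 0.288), Lrp6 (0.0882), Aff3 (0.0815), Tgfbr2 (0.0518) and Arhgap42 (0.104) no longer past the threshold. Hipk2 circ_113 and Sox5 circ_1473 passed under each of 15 alternative settings in both comparisons, whereas Arhgap42 circ_2605 passed under 3, and Dcbld2 circ_2284 and Rasa2 circ_1054 under 7. Vegfd circ_1559 passed under 10 of the 15 in OM against PM and 9 in C2S against PM. It missed the threshold without any 1 of the OM libraries or PM library 2 in the first comparison (adjusted p from 0.0707 to 0.104), and without any 1 of the C2S libraries, PM library 2 or PM library 3 in the second (0.058 to 0.139). Mettl9 circ_255 passed under 9, missing it without OM library 1, OM library 3, PM library 2 or PM library 3 (0.0722 to 0.129). Among the others, Npr3 circ_1093 was lost without OM library 1 (0.0569) or PM library 2 (0.0628), Ndst4 circ_725 without OM library 3 (0.0594) in OM against PM and C2S library 2 (0.0522) in C2S against PM, and H6pd circ_386 without C2S library 2 (0.0822) or 3 (0.0663). With only the 2 compared groups fitted by limma, 6 passed in OM against PM and 5 in C2S against PM. Lost in the first were Vegfd (adjusted p = 0.137), Mettl9 (0.119), Dcbld2 (0.0875), Arhgap42 (0.0866) and Ndst4 (0.0533). Lost in the second were Vegfd (0.239), Dcbld2 (0.179), Rasa2 (0.144), H6pd (0.109) and Ndst4 (0.0987).

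The linear RNA of the hosts comes from a separate table that the rule did not use, and 347 of the 350 hosts were tested there among 13049 genes, by limma on log2(FPKM + 1). In C2S against OM, 45 hosts rose and 27 fell, 20.7% of the 347 beside 22% of all genes (10.6% higher and 11.5% lower). In OM against PM, 68 rose and 137 fell, 59.1% beside 54.8% (27.1% higher and 27.7% lower), and the median change was -0.11 over the hosts and 0.00 over all genes. In C2S against PM, 86 rose and 128 fell, 61.7% beside 56% (27.6% higher and 28.4% lower). The count for C2S against OM was 34, 45 and 47 without C2S library 3, C2S library 2 and OM library 3.

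Host RNA moved in the same direction as the circle in OM against PM for Tgfbr2, Lrp6, Sox5, Hipk2 and Npr3. The host changes of Mettl9, Dcbld2, Arhgap42, H6pd and Rasa2 are not given here. Tgfbr2 RNA averaged 29.7 ± 2.40 FPKM in OM and 115 ± 6.74 FPKM in PM, a log2 change of -1.92 (limma, adjusted p = 3.30e-08). Lrp6 RNA averaged 31.0 ± 2.92 FPKM in OM and 108 ± 9.30 FPKM in PM (-1.76, adjusted p = 1.56e-07). The circles had changed by -1.37 and -1.02, and the difference between circle and host, tested as a ratio of the levels, had adjusted p of 0.627 for Tgfbr2 and 0.406 for Lrp6. Sox5 RNA had 10.7 ± 0.847 FPKM in OM against 3.27 ± 0.214 FPKM in PM (1.45, adjusted p = 1.92e-07), and Hipk2 RNA had 16.7 ± 2.66 FPKM against 5.78 ± 1.46 FPKM (1.40, adjusted p = 1.17e-04). Npr3 RNA had 21.3 ± 0.849 FPKM in OM against 50.9 ± 0.661 FPKM in PM (-1.22, adjusted p = 4.65e-07).

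For Aff3 and Vegfd the host moved less than the circle. Aff3 RNA had 33.9 ± 2.26 FPKM in OM and 38.2 ± 1.90 FPKM in PM, a change of -0.17 (adjusted p = 0.0276) beside -1.08 for the circle. Vegfd RNA had 445 ± 16.3 FPKM in OM and 307 ± 2.60 FPKM in PM, a change of 0.53 (adjusted p = 3.24e-05) beside 1.58. The difference between circle and host was itself tested as log2(RPM + 111.7) minus log2(FPKM + 1). For Aff3 circ_1907 it changed by -0.91 ± 0.33 (adjusted p = 0.310) and for Vegfd circ_1559 by 1.05 ± 0.47 (adjusted p = 0.401), so neither passed. With 4 times the RPM pseudocount the difference passed in limma for Aff3 circ_1907 (-0.78, adjusted p = 0.00659), Vegfd circ_1559 (0.68, 0.0322), Tgfbr2 circ_1220 (0.83, 0.00360) and Lrp6 circ_256 (0.85, 0.00350). That setting shrinks the change of the circle, to -1.09 for Tgfbr2 circ_1220, and leaves that of the host as it was. These passes therefore do not show that circle and host changed unequally.

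**Figure D5:**
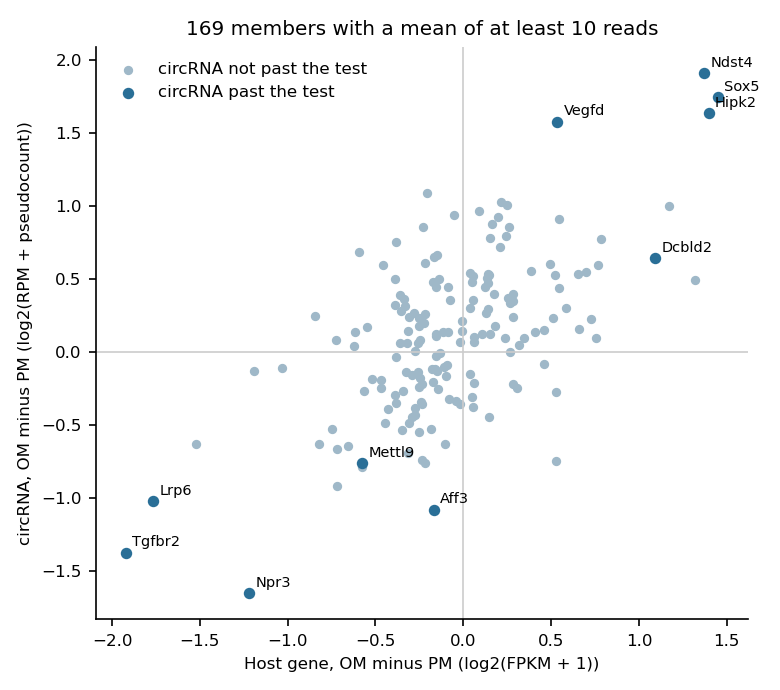
Log2 change in OM against PM of the circRNA (y axis, log2(RPM + pseudocount)) against that of the host's linear RNA (x axis, log2(FPKM + 1)) for the 169 circRNAs with a mean of at least 10 reads and a tested host. Named points are circRNAs past the test. Lrp6, Tgfbr2 and Npr3 lie low on both axes, Sox5, Hipk2 and Ndst4 lie high on both, and Aff3 has a circle change of -1.08 beside a host change of -0.17.

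Over 169 circles with a mean of at least 10 reads and a tested host, Pearson's r between the circle's and the host's log2 change was 0.61 in OM against PM, 0.65 in C2S against PM and 0.04 in C2S against OM. These are descriptions across circles that share libraries and sometimes a host, and reads from inside a circle's exons cannot be told from linear reads in the host value. The difference between circle and host passed the test for 0 of 401 circles in each comparison, beside 0%, 0.446% and 0.297% of the 2690 circRNAs tested in C2S against OM, OM against PM and C2S against PM. At an unadjusted p under 0.05 there were 18, 40 and 27 circles in that order, or 4.49%, 9.98% and 6.73%, beside 6.25%, 11.9% and 11.5% of all tested. With 4 times the RPM pseudocount 1, 52 and 57 circles passed (0.249%, 12.97% and 14.2%), beside 3, 413 and 455 of the 2690 (0.112%, 15.4% and 16.9%). That setting shrinks the change of the circle alone.

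A list of 34 genes known from other work as sources of abundant circRNAs was compared with the set. Of these, 27 had some exonic circRNA in the tables and 11 had a circle in the set, 15 circles in all. Apart from Hipk2 circ_113 none of the 15 passed in any comparison. Their median change was -0.07 in C2S against OM, 0.21 in OM against PM and 0.24 in C2S against PM. Rsrc1 circ_1765, from a gene for a splicing factor rich in arginine and serine, averaged 1987 ± 522 RPM in C2S, 1677 ± 242 RPM in OM and 1423 ± 96.0 RPM in PM. Arhgap5 circ_2701 had 1401 ± 47.5 RPM in C2S, 1375 ± 102 RPM in OM and 1789 ± 320 RPM in PM. Zfp148 circ_1564 and Mtcl1 circ_2534 averaged 1116 and 928 RPM over the 9 libraries.

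Lower on this list, Rmst, a long noncoding RNA gene, gave 3 circles that share their upstream end, circ_2081, circ_1154 and circ_224, at 633, 368 and 359 RPM. Its circ_2081 had 835 ± 147 RPM in C2S, 641 ± 125 RPM in OM and 423 ± 199 RPM in PM (C2S against PM 0.88 ± 0.31, adjusted p = 0.222), beside host RNA at 4.31 ± 0.352, 3.93 ± 0.266 and 2.03 ± 0.0611 FPKM in the same order of groups. Ankib1 circ_685, Ncoa2 circ_2842 and Crebbp circ_1752 had means of 397, 491 and 195 RPM. Crebbp, which encodes a histone acetyltransferase, gave the lowest circle on the list, with 2 reads in each C2S library.

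Of 27 genes that act in circRNA formation or decay, 11 had an exonic circRNA and 2 had circles in the set. Mbnl1, a splicing regulator whose fly homologue is known to bind its own precursor RNA and to favour its circle, gave circ_2372 and circ_1666, at 638 and 482 RPM. Its host RNA had 226 ± 3.68 FPKM in C2S, 235 ± 22.4 FPKM in OM and 236 ± 16.7 FPKM in PM, which made circ_1666 one of the lowest circles per host RNA, at 2.08 RPM per FPKM. Qk encodes Quaking. Its circ_1095 had 578, 837 and 815 RPM in OM, against 219, 480 and 310 RPM in PM (0.96 ± 0.34, adjusted p = 0.224), while Qk RNA fell to 36.8 ± 2.54 FPKM in OM, against 51.2 ± 4.40 FPKM in PM (-0.46, adjusted p = 4.14e-04).

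Of 75 chromatin genes, 57 had an exonic circRNA and 10 gave 12 circles of the set, none of which passed in any comparison. Of 33 genes on a list of osteoblast genes, 11 had an exonic circRNA and none gave a circle of the set. Among all hosts of circRNAs within the same limits, 350 gave a circle of the set and 2074 did not. The rule also leaves out hosts with 10 or more exonic circRNAs. None in 11 is therefore not read as a result about osteoblast genes, and no list count was tested. The osteoblast list also names Gas7 and Tacc1. In linear RNA, 8 of its 25 tested genes rose and 1 fell in C2S against OM, where 10.6% of all genes tested rose and 11.5% fell. Of the 25, 7 rose and 12 fell in OM against PM, beside 27.1% and 27.7% of all genes, and 12 rose and 8 fell in C2S against PM, beside 27.6% and 28.4%. Of 31 tested genes on the list of circRNA sources, 6 rose and 1 fell in C2S against OM, 5 rose and 16 fell in OM against PM, and 7 rose and 13 fell in C2S against PM. Of 26 tested genes of circRNA formation or decay the counts were 3 and 1, 6 and 8, and 7 and 9, and of 71 tested chromatin genes 8 and 5, 5 and 18, and 8 and 17, higher before lower and with the comparisons in the same order.

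The study's title names miR-6931, and the circles were searched for matches to its seeds, the stretch by which a miRNA recognises a target. The mature sequences, from RefSeq (GRCm38.p6), are given with the seed in capitals.
mmu-miR-6931-5p: uGGGGUGGggagugggggacu
mmu-miR-6931-3p: cCCAACCUcuucauaccccag
The complement of the 5p seed, CCACCCC, occurred on the transcript strand of 32 of the 385 circles with annotated ends (8.31%), and in 275 of the 4026 listed in fewer libraries (6.83%). The complement of the 3p seed, AGGTTGG, occurred in 14 (3.64%), against 144 (3.58%). The ring was read across its junction. Tcf20 circ_2164, the single exon of 5772 bases, held both, the 5p match at base 3760 of the circle and the 3p match at base 1148.
Tcf20 circ_2164, 5p match in capitals: acggtatgggCCACCCCatgagccaga
Hipk2 circ_113, 5p match in capitals: tcctcaagaaCCACCCCtcctatgccc
Both Glis3 circles shared a further 5p match. These are matches of letters and carry no information on binding.

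The limits of the rule can be read from the circles nearest to them. The shortest span inside was Hmgxb3 circ_2682 at 1000 bases and 203 RPM, and the nearest outside was Pwwp2a circ_815 at 944 bases and 576 RPM. The longest inside was Bnc2 circ_2846 at 49377 bases and 249 RPM, and the nearest outside was Cpq circ_2796 at 52622 bases and 607 RPM. Hosts with 9 exonic circRNAs gave 11 circles with a median of 420 RPM, and hosts with 10, which the rule leaves out, had 16 that met its other terms, with a median of 612 RPM. Circles listed in 8 libraries had a median of 229 RPM, against 482 RPM for those listed in 9.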

How the data were processed

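Total RNA of 9 libraries (C2S, OM and PM, 3 each) was sequenced on an Illumina instrument, per the labels. STAR, HTSeq and RSEM, with mm10 as the build, are listed without roles in the submitters' processing notes. No header names a unit. The circRNA columns deposited by the authors hold RPM. In every library each value was a whole number of equal steps (tolerance 0.001 reads), from 2 upwards, and the step size gives the circRNA read total. An entry without a value was set to 0. The linear columns deposited by the authors hold FPKM, whose steps gave 29581261 to 38763136 reads per library.

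The tests covered circRNAs with a value in 3 or more libraries, as log2(RPM + 111.7) (the smallest value of a library, taken as its median across libraries). They covered genes reaching 1 FPKM in 3 or more libraries, as log2(FPKM + 1), and the difference of both logs for 2690 circRNAs with 1 tested host. Fold changes on these scales understate the change of low features. One limma model (limma 3.58.1 under R 4.3.3) took all 9 libraries, with a mean trend and 6 residual degrees of freedom, and p-values were adjusted over all features by Benjamini-Hochberg at 0.05. Shares were compared by exact permutation tests (scipy). Count tests, planned as alternatives on read numbers rebuilt from the RPM steps, were not run. The limma step was also run on simulated data with little spread beyond counting, which does not show how it performs on these libraries.

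Exon structure came from GENCODE M21, 1 transcript per circRNA, preferring principal isoforms, then basic and coding ones, then the longest. The counting variance of a circle is that of its read number at each library's depth. Named circles are the 10 highest, those past a test, the 5 with the lowest and highest spread, hosts on the circRNA source and biogenesis lists, and those nearest the limits. Members and lists were chosen with earlier results of these data known. Alternatives changed the pseudocount, filter, scaling, block, samples and replicates. Sequences on chromosome 18 are not printed.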

Additional observations from a re-analysis of the deposited data

How the results depend on the processing

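None of the 21 changes of single circles past the threshold turned its direction under the alternatives that were run, and neither did the differences between circle and host given for 4 circles. In C2S against OM, 0 circles of the set passed under every alternative. In OM against PM the 11 calls became 38 among the 636 circRNAs listed in all 9 libraries, 24 with unlisted entries missing and 6 with only the 2 groups fitted, and leaving out a replicate gave 6 to 9. In C2S against PM the 10 calls became 28, 16 and 5 under the same settings, and 5 to 9 without a replicate. The first 2 settings test fewer circRNAs and the third fewer libraries. All 11 and all 10 calls were among the higher counts. Of all circRNAs tested, 12.1% and 10.1% passed when only those listed in all 9 libraries entered. Leaving out a replicate gave 34 to 62 hosts in C2S against OM, where 72 passed. With 4 times the RPM pseudocount the difference between circle and host passed for 1 circle in C2S against OM, 52 in OM against PM and 57 in C2S against PM, where 0 did, beside 3, 413 and 455 of all 2690, and the cause was not tested. The larger pseudocount enters the level of the circle and not that of the host. The log2 ratio of the set's share, 0.00 in each comparison, was -0.12, 0.32 and 0.19 for C2S against OM, OM against PM and C2S against PM when linear reads were the denominator. Of the 49 single log2 changes that had not passed, those 4 differences included, 13 turned sign somewhere, with no adjusted p below 0.471 where they did. Per linear reads these were Ube2k circ_1258 (-0.0312), Sox5 circ_1473 (-0.0349) and Ndst4 circ_725 (-0.0954) in C2S against OM, Paip2 circ_1683 (0.273) and Hipk3 circ_76 (0.190) in OM against PM, and Paip2 circ_1683 (0.0592) and Ankib1 circ_593 (0.175) in C2S against PM. Median-ratio scaling turned Paip2 circ_1683 in OM against PM (0.00487) and Ankib1 circ_593 in C2S against PM (0.0209). Leaving out a replicate spread the change in C2S against OM from -0.0922 to 0.0205 for Glis3 circ_109, from -0.257 to 0.118 for Tgfbr2 circ_1220, from -0.0104 to 0.176 for Ube2k circ_1258, from -0.0881 to 0.0430 for Dcbld2 circ_2284, from -0.140 to 0.194 for Ndst4 circ_725 and from -0.00603 to 0.213 for Bnc2 circ_821. It did so in OM against PM from -0.0905 to 0.0706 for Paip2 circ_1683 and from -0.0394 to 0.220 for Ankib1 circ_593, and in C2S against PM from -0.189 to 0.0696 for Ankib1 circ_593 and from -0.0415 to 0.128 for Hipk3 circ_76. The cause was not tested.

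Same-numbered libraries did not deviate together in the circRNA table (r from -0.017 to 0.035). In the linear table r ran from -0.092 to 0.395, with 7 of 9 pairs above 0 and 4 above 0.1. Pairs of different number there ran from -0.4685 (OM library 2 with PM library 3) to 0.1875 (OM library 2 with PM library 1). Since not every same-numbered pair was above 0.1, the numbers were not taken to pair the samples. That limit does not exclude a pairing in the linear table. With the replicate block 0, 9 and 9 circles passed in C2S against OM, OM against PM and C2S against PM, and 79, 221 and 217 hosts. Scaling by median ratios, chosen after seeing the data, gave 10 calls in OM against PM and 10 in C2S against PM. Tests by edgeR and DESeq2 and TMM scaling, planned on read numbers rebuilt from the RPM steps, were not run. The median circle rests on 8.39 reads, and the median standard error of a log2 change is 0.34. At this depth a change of 2-fold or less would mostly miss the threshold, and larger changes can miss it too.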
